A study of Mus musculus with 4 samples.

Results

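The genes described here encode the nuclear pore and the carriers that move through it. They were the 45 of 23420 genes in the deposited tables whose symbols begin with Nup and a number, Kpna and a number, Kpnb1, Ipo and a number, Xpo and a number or t, or Tnpo and a number: 22 nucleoporins, 14 importins, 3 transportins and 6 exportins. The genes were chosen by symbol and not by their values, though with earlier results of these data known. Of the 45, 44 had at least 100 recovered reads over the 12 replicates and were tested. The remaining one, the importin alpha gene Kpna7, had 4 reads in all.

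Cochleae of postnatal day 1 Atoh1-GFP transgenic mice on the CD-1 background, in which the reporter marks hair cells, were kept in organ culture overnight at low oxygen with penicillin in the medium. Some were then given 0.5 mM gentamicin, an aminoglycoside antibiotic that damages hair cells, for 3 h and the others were not. Sorting gave GFP-positive hair cells, with weakly fluorescent cells gated out, and GFP-negative non-hair cells, a mixture of supporting cells, other epithelial cells and surrounding tissue. RNA sequencing of the 4 resulting groups (control and gentamicin-treated, in each population) had 3 replicates each. The labels do not say whether replicates came from separate litters, so p-values measure the spread between these samples.

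Values are normalized read numbers, which are reads scaled per replicate with 1 added and are not divided by gene length. Recovered reads numbered 22400727 to 28152337 per replicate. The 6 hair cell markers examined (Atoh1, Myo6, Myo7a, Pou4f3, Gfi1 and Otof) were all higher in hair cells, with a median log2 difference of 7.57, and none passed the criteria for a change with gentamicin, although their summed level was 10552 to 10984 in control and 8843 to 9906 in treated hair cells, without overlap. Markers of other cell types were detected in hair cells, and some fell after gentamicin. By the same criteria 14.8% of all genes tested fell in hair cells, and lists this short are hard to compare with that share. Of 8 supporting cell markers 3 fell, and their summed level went from between 1417 and 1632 in control to between 690 and 1237 in treated hair cells. Of 4 mesenchyme markers 1 fell (summed level 94.3 to 229 in control and 59.1 to 82.7 in treated hair cells), as did 1 of 4 endothelial markers (11.3 to 21.1 and 5.19 to 9.96) and 1 of 3 Schwann cell markers (52.6 to 72.5 and 34.4 to 53.9). None of 4 neuron markers passed, but their summed level, at 391 to 451 in control and 317 to 328 in treated hair cells, did not overlap either. In control non-hair cells the sums were 1078 to 1707 for supporting cell and 229 to 584 for neuron markers, overlapping control hair cells. They were 2169 to 3299 for mesenchyme, 113 to 202 for endothelial and 171 to 220 for Schwann cell markers, above control hair cells. Of the 8 supporting cell markers 2 were higher in control hair cells and 3 lower. No marker was without reads in a group, and the part of these markers in the results on hair cells was not tested.

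As background, the nuclear pore is a ring-shaped assembly in the nuclear envelope. Outer and inner rings of nucleoporins form its scaffold, nucleoporins with disordered phenylalanine-glycine repeats fill the central channel, and filaments reach into the cytoplasm and, as the nuclear basket, into the nucleus. Importins bind cargo in the cytoplasm and release it in the nucleus on meeting Ran bound to GTP, whereas exportins bind cargo together with that form of Ran, and importin alpha proteins are adaptors that join cargo with a classical import signal to importin beta-1.

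Promoter sequences are shown for genes on which the results below turn: Xpo1, Nup54 and Tnpo3, which rose in treated hair cells, Nup210, which had the largest difference between the populations, and Nup93, which rose in treated non-hair cells. Each runs 5′ to 3′ on the strand of its gene and holds the bases before the first annotated exon, up to 250, from RefSeq on GRCm38.p6. The windows lie at chr11:23255791-23256040 (plus strand), chr5:92435220-92435449 (minus), chr6:29609888-29610099 (minus), chr6:91116830-91117076 (minus) and chr8:94214314-94214563 (plus). Capitals mark matches on either strand to CCAAT, the GC box GGGCGG, the E-box CACGTG, the ETS core CCGGAAG, the AP-1 motif TGANTCA or the cyclic AMP response element TGACGTCA. In Nup93 the E-box and a GC box share bases, as do a pair of GC boxes.
Xpo1: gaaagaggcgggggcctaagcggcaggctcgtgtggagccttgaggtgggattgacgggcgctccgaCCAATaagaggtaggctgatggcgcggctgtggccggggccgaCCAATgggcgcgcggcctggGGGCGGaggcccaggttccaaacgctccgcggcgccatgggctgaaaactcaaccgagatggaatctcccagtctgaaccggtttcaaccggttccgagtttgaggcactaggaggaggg
Nup54: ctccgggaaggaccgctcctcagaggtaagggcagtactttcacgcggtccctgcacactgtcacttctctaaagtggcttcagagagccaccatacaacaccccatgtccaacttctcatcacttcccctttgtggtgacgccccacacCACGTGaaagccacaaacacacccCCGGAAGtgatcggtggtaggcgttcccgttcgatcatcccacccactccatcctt
Tnpo3: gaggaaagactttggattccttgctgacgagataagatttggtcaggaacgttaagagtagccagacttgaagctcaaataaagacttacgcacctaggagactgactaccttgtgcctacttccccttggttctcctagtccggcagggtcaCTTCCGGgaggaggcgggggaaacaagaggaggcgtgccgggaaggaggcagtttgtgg
Nup210: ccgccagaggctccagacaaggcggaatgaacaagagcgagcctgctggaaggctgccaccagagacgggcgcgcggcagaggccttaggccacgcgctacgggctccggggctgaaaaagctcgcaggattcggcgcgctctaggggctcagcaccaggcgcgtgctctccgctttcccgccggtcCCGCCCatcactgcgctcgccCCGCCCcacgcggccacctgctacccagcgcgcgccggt
Nup93: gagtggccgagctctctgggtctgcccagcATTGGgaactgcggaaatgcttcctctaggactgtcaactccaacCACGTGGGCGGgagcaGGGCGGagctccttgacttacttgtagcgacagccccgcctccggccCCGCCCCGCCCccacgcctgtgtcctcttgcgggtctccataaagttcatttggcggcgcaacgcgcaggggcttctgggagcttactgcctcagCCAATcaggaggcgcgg

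A window was found for 35 of the 45 genes. CCAAT was present in 19 of the 35, against 37.5% of all genes with a window, and the GC box in 24, against 35.4%. The ETS core was found in 6 of the 35 (7.83% of all genes), the E-box in 6 (6.86%), the AP-1 motif in 3 (7.82%) and the cyclic AMP response element in 2 (1.77%). Rises in treated hair cells were called for 7 genes with a window. Of these 7, CCAAT was present in 5, the GC box in 3, the ETS core in 3 (Nup37, Nup54 and Tnpo3) and the E-box in 1. Neither the AP-1 motif nor the cyclic AMP response element was present in a window of the 7. A match is a description of these letters only.

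Gentamicin treatment for 3 h raised 13 of the 44 pore and transport genes in hair cells and lowered none, counting changes of over 1.2-fold with p under 0.01 before adjustment. Among all 16078 genes tested, 12.7% rose and 14.8% fell by these criteria, so the 13 were 29.5% of the genes described here. The median log2 fold change was 0.11 over the 44 genes and -0.09 over all genes, and 32 of the 44 values were above 0. By class, 5 of 22 nucleoporins, 5 of 16 importins and transportins and 3 of 6 exportins rose, with median log2 fold changes of 0.09, 0.06 and 0.22. Treated replicates lay entirely above the controls for 20 genes, against 21.7% of all genes, and entirely below for 6, against 33.1%. In a bulk sample, fewer cells of a type and less RNA per cell cannot be told apart.

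**Figure D1:**
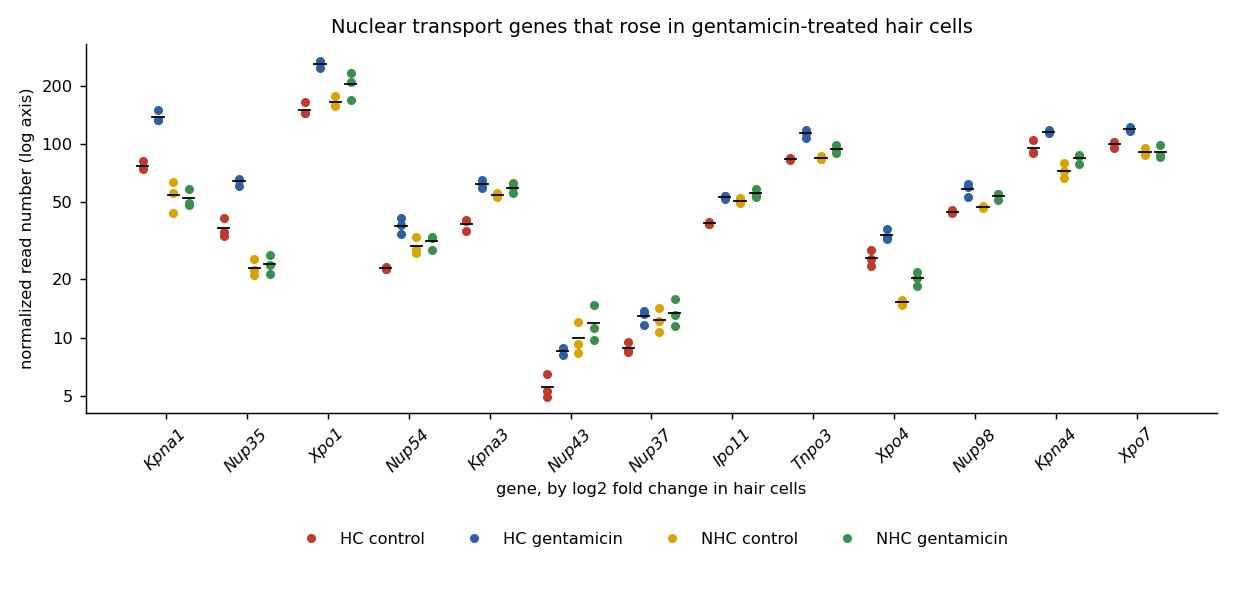
Normalized read number (log axis) of the 13 genes that rose in gentamicin-treated hair cells, in each of the 3 replicates of the 4 groups; points are replicates and black bars are means. For every gene the 3 treated hair cell replicates lie above the 3 control hair cell replicates.

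Among nucleoporins, those that rose came from the inner ring, the central channel, the outer ring and the pore's mobile part. Nup35, an inner ring protein that touches the membrane, was at 41.3, 35.2 and 33.5 in control hair cells and 65.6, 66.2 and 61.0 in treated ones (log2 fold change 0.81, SE 0.11, adjusted p = 3.86e-04 by limma; SE, standard error). Nup54, a channel nucleoporin with phenylalanine-glycine repeats, was at 22.6, 23.2 and 22.7 in control and 38.4, 41.4 and 34.1 in treated hair cells (log2 fold change 0.73, SE 0.10, adjusted p = 4.32e-04 by limma). Both genes were higher in every treated replicate than in any control. The outer ring genes Nup43 and Nup37 had few reads: Nup43 was at 6.52, 5.32 and 4.96 in control and 8.83, 8.78 and 8.16 in treated hair cells (log2 fold change 0.63, SE 0.18, adjusted p = 0.0224 by limma). Nup37 was at 8.64, 9.51 and 8.42 and 13.7, 13.3 and 11.6 (log2 fold change 0.54, SE 0.15, adjusted p = 0.0173 by limma). The groups did not overlap for either, but the gap between the highest control and the lowest treated replicate was narrow. Nup98, which carries repeats on both faces of the pore, had a log2 fold change of 0.38 (adjusted p = 0.00193 by limma). The other 4 genes listed as outer ring did not pass, with log2 fold changes of 0.33 for Nup85, 0.25 for Nup160, 0.01 for Nup107 and -0.12 for Nup133.

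No gene of the nuclear basket, the cytoplasmic side or the membrane ring passed in hair cells. Nup153 and Nup50 of the basket had log2 fold changes of 0.13 and 0.10, and Nup214 and Nup88 of the cytoplasmic side -0.15 and 0.04. Nup210, a membrane-spanning nucleoporin, was at 255, 278 and 264 in control and 201, 229.8 and 199 in treated hair cells. Its treated replicates were all lower, with the most negative estimate of the 44 genes (log2 fold change -0.34, SE 0.23, adjusted p = 0.286 by limma), but it did not pass. This SE draws on all 4 groups. With the hair cell groups fitted alone, Nup210 was called lower and Nup85 of the outer ring higher. The remaining inner ring genes had log2 fold changes of -0.05 for Nup205 to 0.16 for Nup155, and Nup62, Nup62cl, Nup210l and the read-through gene Nup62-il4i1 had 0.08, 0.06, -0.22 and 0.28, none of which passed. Reads of Nup62 may be divided with Nup62-il4i1, so both are uncertain.

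Of the 5 importin alpha genes tested, Kpna1, Kpna3 and Kpna4 rose. Kpna1 went from 76.3, 74.0 and 81.4 in control to 133, 149.5 and 133 in treated hair cells (log2 fold change 0.84, SE 0.12, adjusted p = 5.61e-04 by limma), a 1.79-fold change. Kpna3 was at 40.0, 35.6 and 40.5 in control and 62.2, 65.0 and 59.7 in treated replicates (log2 fold change 0.69, SE 0.07, adjusted p = 9.51e-05 by limma). For both genes the lowest treated replicate was well above the highest control. Kpna4 had a log2 fold change of 0.29 (adjusted p = 0.0194 by limma). Kpna6 was at 154, 160.3 and 149.8 in control and 122, 129 and 136 in treated hair cells (log2 fold change -0.26, SE 0.06, adjusted p = 0.00754 by limma), lower in every treated replicate but just short of the fold limit of 1.2. Kpna2, an adaptor abundant in dividing cells, had a log2 fold change of -0.16 (adjusted p = 0.362 by limma), and Kpnb1, the importin beta-1 carrier that these adaptors use, 0.06 (adjusted p = 0.544 by limma).

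Among carriers that bind cargo without an adaptor, Ipo11 and Tnpo3 rose. Ipo11, a carrier of ubiquitin-conjugating enzymes, was at 39.6, 38.5 and 38.9 in control and 53.9, 54.0 and 52.4 in treated hair cells (log2 fold change 0.45, SE 0.06, adjusted p = 3.42e-04 by limma). Tnpo3, which imports serine- and arginine-rich splicing factors, was at 82.4, 83.4 and 84.6 and 108, 119 and 114 (log2 fold change 0.44, SE 0.06, adjusted p = 3.06e-04 by limma). Replicates within each group lay close together for both genes, and the groups were apart. The other 6 importins (Ipo4, Ipo5, Ipo7, Ipo8, Ipo9 and Ipo13) had log2 fold changes from -0.10 for Ipo4 to 0.20 for Ipo8, and none passed. Nor did the transportins Tnpo1 (0.05) and Tnpo2 (0.21).

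Xpo1, the general exporter of proteins with leucine-rich export signals, rose most among exportins. It was at 144, 144 and 164 in control and 264, 269 and 246 in treated hair cells (log2 fold change 0.79, SE 0.11, adjusted p = 4.27e-04 by limma), and every treated replicate exceeded every control. Xpo4, which exports proteins including a translation factor, was at 25.4, 23.5 and 28.4 in control and 33.1, 32.4 and 36.3 in treated replicates (log2 fold change 0.40, SE 0.10, adjusted p = 0.0101 by limma). Xpo7 was at 101, 103 and 95.2 and 117, 120.3 and 123 (log2 fold change 0.27, SE 0.07, adjusted p = 0.0118 by limma). The shift in Xpo4 and Xpo7 was smaller than in Xpo1, although neither had overlapping groups. Xpo5, the exporter of precursor microRNAs, Xpo6, which exports actin, and Xpot, which exports transfer RNA, did not pass, with log2 fold changes of 0.11, 0.17 and -0.08.

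How firmly the 13 rises held differed between genes. Leaving out each hair cell replicate in turn gave 10 to 12 genes that rose, and Nup35, Nup54, Nup98, Kpna1, Kpna3, Ipo11, Tnpo3 and Xpo1 were called in all 6 of these fits. Xpo4 was not called without control replicate 2, and Xpo7 without control replicate 3 or treated replicate 3. Kpna4 was not called without control replicate 1 or 2 or treated replicate 1 or 3, Nup37 without control replicate 1 or 3 or treated replicate 1 or 2, and Nup43 only passed without control replicate 1. Their log2 fold changes over the 6 fits lay at 0.33 to 0.47 for Xpo4, 0.24 to 0.29 for Xpo7, 0.25 to 0.36 for Kpna4, 0.49 to 0.61 for Nup37 and 0.54 to 0.74 for Nup43. Kpna6 was called lower in 4 of the fits, at -0.30 to -0.22 over all 6.

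The genes that rose had transcripts of low GC content. The median was 43.7% (39.8 to 48.0%) for the 13, against 49.1% for the 30 others tested with an annotated transcript. Over all 15038 genes with a value the log2 fold change in hair cells and GC content had a Spearman correlation of -0.253, and over 43 of the genes described here -0.552, as a description across genes that share libraries. Of all genes in the lowest of 5 equal bins of GC content 23.2% rose, with 10 of 17 of the pore and transport genes. In the second bin 13.5% of all genes rose, with 3 of 10 of the pore and transport genes. In the upper 3 bins 11.6%, 8.68% and 6.65% of all genes rose, with none of 16, and 16 genes are few to compare with such shares. With the trend on GC content removed, an alternative added after the data were seen, 10 of 43 genes rose, against 12.9% of all genes. Kpna1 (0.74), Nup54 (0.74), Nup35 (0.74), Xpo1 (0.60) and Kpna3 (0.50) had the largest log2 fold changes among them. Among those no longer called, Nup43 (0.55) and Xpo7 (0.22) had nearly the same log2 fold change as before, while Nup37 (0.38) and Kpna4 (0.12) had a smaller one, and Tnpo2, which imports RNA-binding proteins, was gained at 0.31.

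**Figure D2:**
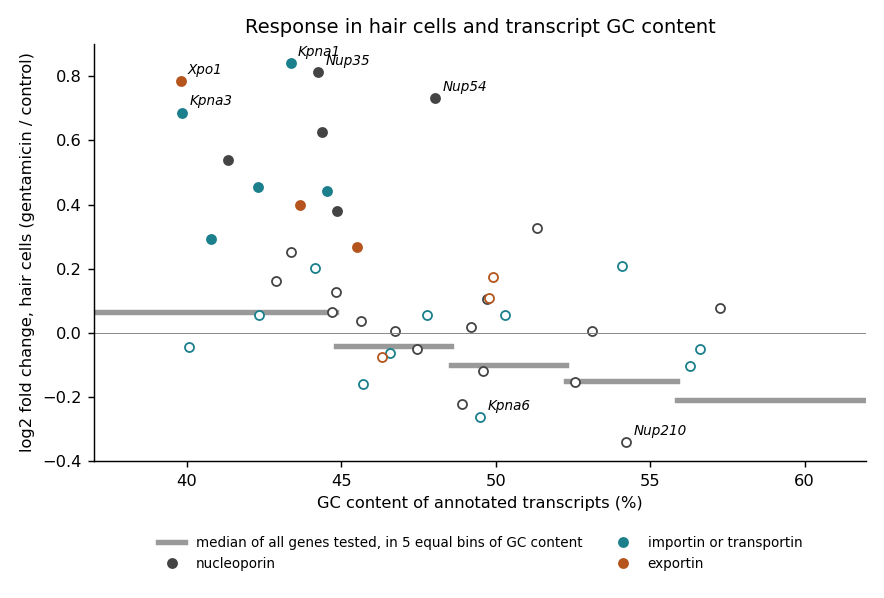
Log2 fold change in hair cells (gentamicin over control) against the GC content of annotated transcripts for 43 genes; filled points rose, open points did not pass, and grey lines are medians of all genes tested in each of 5 equal bins of GC content, the outer bins extending past the axis. The 13 filled points lie between 39.8 and 48.0% GC.

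In non-hair cells 4 of the 44 genes rose after gentamicin and none fell by the same criteria, whereas 3.18% of all genes rose and 2.26% fell. The 4 were Nup93, Xpo4, Xpo5 and Kpnb1. Nup93 of the inner ring was at 48.2, 44.4 and 51.9 in control and 68.2, 84.3 and 63.9 in treated non-hair cells (log2 fold change 0.58, SE 0.10, adjusted p = 0.0438 by limma), and it was the only one of the 44 with an adjusted p under 0.05, where 0.236% of all genes rose. Kpnb1 was at 294, 286 and 291 in control and 361, 387 and 331 in treated replicates (log2 fold change 0.31, SE 0.07, adjusted p = 0.0685 by limma). Treated replicates of both genes lay above all controls, and replicate 2 was the highest of each. Xpo4 went from 15.6, 14.8 and 15.6 to 20.4, 21.8 and 18.6 (log2 fold change 0.40, SE 0.10, adjusted p = 0.0936 by limma). Xpo5 was at 57.4, 56.8 and 61.2 in control and 71.1, 72.0 and 72.8 in treated non-hair cells (log2 fold change 0.30, SE 0.07, adjusted p = 0.0842 by limma). Groups did not overlap for either exportin. The 40 genes that did not pass had log2 fold changes from -0.14 for Tnpo2 to 0.32 for Kpna2, and the median over all 44 was 0.14, against -0.005 over all genes tested. Treated replicates lay entirely above the controls for 16 of the 44 genes and entirely below for 1, where 10.1% and 7.68% of all genes did so.

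**Figure D3:**
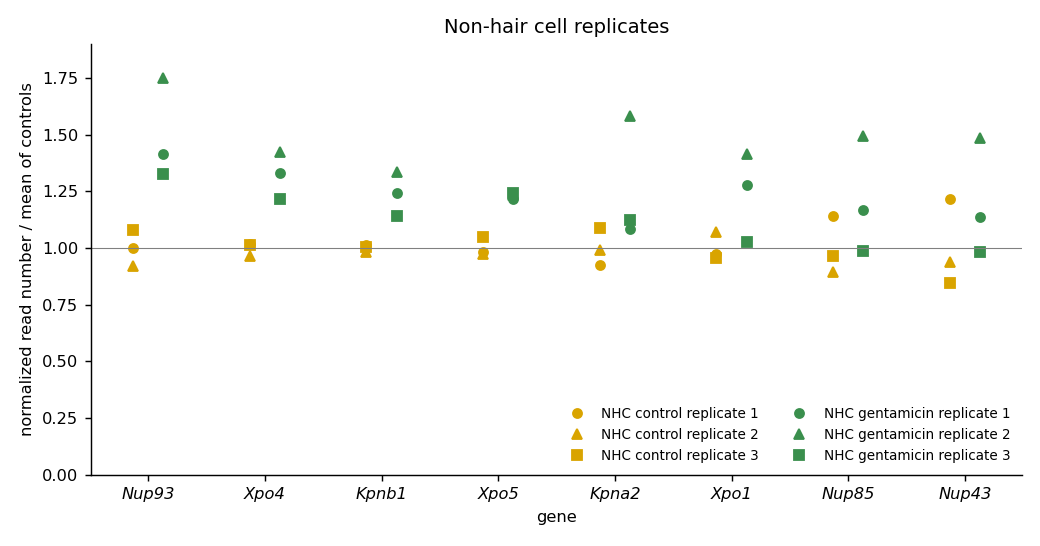
Normalized read number in each non-hair cell replicate divided by the mean of the 3 controls, for the 4 genes that rose (Nup93, Xpo4, Kpnb1 and Xpo5) and the 4 with the next largest estimates, which did not pass; marker shapes give the replicate number. Treated replicate 2 (green triangles) is the highest value for 7 of these 8 genes.

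One replicate stood apart in this comparison. Treated replicate 2 had the highest value among the 6 non-hair cell replicates for 28 of the 44 genes (63.6%), against 29.2% of all genes tested. The summed level of 7 proliferation markers was 492 in that replicate, 277 to 298 in the other treated and 302 to 336 in the control replicates. Its 4 mesenchyme markers summed to 4986 against 2169 to 3642 in the other 5, and its 8 supporting cell markers to 730 against 1078 to 1707. The part of these cell types in the result was not tested. Without treated replicate 2, 3 genes rose, Kpnb1 being lost. Without treated replicate 3, 8 genes rose, with Ipo8, Nup50, Nup85 and Xpo1 added.

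Whether gentamicin acted differently on the populations was tested directly. This difference in response, which shares all 12 replicates with the comparisons above, passed an adjusted p of 0.05 for 8 of the 44 genes. The response was greater in hair cells for 6 and greater in non-hair cells for 2, where 6.85% and 6.57% of all genes passed in these directions. The 6 were Kpna1 (difference in log2 fold change 0.89, adjusted p = 0.0092 by limma), Nup35 (0.76), Nup54 (0.65), Kpna3 (0.56), Ipo11 (0.32) and Tnpo3 (0.29). In non-hair cells Kpna1 was at 44.1, 56.0 and 63.4 in control and 48.5, 49.9 and 58.9 in treated replicates, and Nup35 was at 25.6, 22.5 and 21.2 and 23.8, 26.8 and 21.4. The groups overlapped for both. Nup54 was at 33.2, 28.7 and 27.5 in control and 33.1, 32.9 and 28.4 in treated non-hair cells, and Kpna3 at 54.3, 53.4 and 55.9 and 55.8, 62.8 and 60.1. The groups of Nup54 and Kpna3 overlapped too, for Kpna3 by treated replicate 1 alone.

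Nup93 had the opposite pattern. It had a difference in log2 fold change of -0.56 (adjusted p = 0.0264 by limma) but did not pass in hair cells (log2 fold change 0.02), where it was at 51.2, 51.3 and 49.8 in control and 52.3, 53.8 and 48.1 in treated replicates. Ipo4, an importer of histones, differed by -0.33 (adjusted p = 0.0255 by limma). It was at 119.7, 117 and 111 in control and 106, 107 and 110.4 in treated hair cells, against 117, 105 and 112 and 130.2, 132 and 128 in non-hair cells. Treated replicates of Ipo4 were thus lower than controls in one population and higher in the other, though neither response passed by itself. In hair cells the groups were barely apart (110.4 and 110.8). The log2 fold change there (-0.10) was near the median of all genes (-0.09), of which 33.1% had treated replicates entirely lower. With the GC trend removed it was 0.02, and the difference in response did not pass (-0.25, adjusted p = 0.115 by limma). In the annotation, 60.1% of the exon bases of Ipo4 are shared with another protein-coding gene on the same strand, so its reads are uncertain. No exportin passed this test. Xpo1 came nearest, with a difference of 0.49 (adjusted p = 0.0583 by limma), and both Xpo1 and Xpo7 passed, with the greater response in hair cells, under scaling by total reads and without treated non-hair cell replicate 2.

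The calls for Kpna1, Nup35, Nup54 and Kpna3 stood with any 1 of the 12 replicates left out. The total was 4 without control hair cell replicate 1, without control hair cell replicate 2 or without control non-hair cell replicate 2, and 5 without treated hair cell replicate 2 or treated non-hair cell replicate 1. By direction, 4 to 8 genes had the greater response in hair cells and 0 to 5 in non-hair cells: 4 and 0 in each of the fits with a total of 4, and 4 and 5 without treated non-hair cell replicate 3. With the trend on GC content removed 4 genes passed, Kpna1, Nup35, Nup54 and Nup93, and Kpna3 was at 0.35 (adjusted p = 0.0515 by limma).

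**Figure D4:**
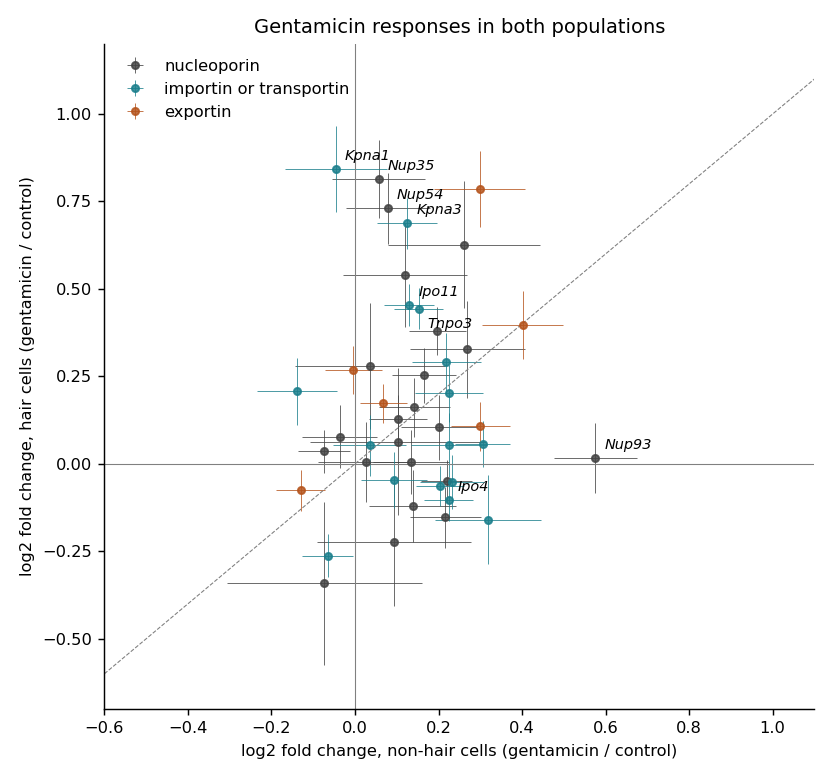
Log2 fold change with gentamicin in non-hair cells (x axis) and hair cells (y axis) for the 44 genes tested, with standard errors as bars and colours for nucleoporins, importins or transportins, and exportins; the dashed line marks equal responses. The 8 named genes passed the test of the difference, 6 of them above the line and Nup93 and Ipo4 below it.

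Without drug, 31 of the 44 genes differed between hair cells and non-hair cells at an adjusted p under 0.05, 17 higher and 14 lower in hair cells, while 31.9% of all genes were higher and 42.2% lower. These control hair cell replicates are the same as in the gentamicin comparison. Each nucleoporin was given a single place in the pore. The 6 genes listed as outer ring were all lower in hair cells, although 5 passed under median-of-ratios scaling and 4 with the trend on GC content removed. Nup98, listed for both sides, did not pass (log2 difference -0.07, adjusted p = 0.342 by limma). Both basket and both cytoplasmic genes of the rule were higher under each of these settings. The 3 channel genes Nup62, Nup54 and Nup62cl were lower, of which 2 and 1 passed under those settings. Nucleoporins at the same places whose symbols fall outside the rule did not all go the same way. Of the outer ring, Seh1l was higher in hair cells (log2 difference 0.29, adjusted p = 0.0336 by limma), though not without control hair cell replicate 1 or 3 or control non-hair cell replicate 2 or 3, and Sec13, at 0.07, did not pass. The channel gene Nupl1 was higher, at 77.9, 76.3 and 65.6 in hair cells and 45.4, 52.4 and 46.8 in non-hair cells (log2 difference 0.60, SE 0.09, adjusted p = 6.68e-05 by limma). Of the cytoplasmic side, Gle1 (-0.40) and Aaas (-1.80) were lower, and Nupl2 (1.15) and Ranbp2 (0.49) higher. Median-of-ratios scaling raised the median of all genes by 0.10 on the log2 scale and gave 21 genes higher and 11 lower. Removal of the GC trend raised it by 0.18 and gave 22 higher and 9 lower.

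**Figure D5:**
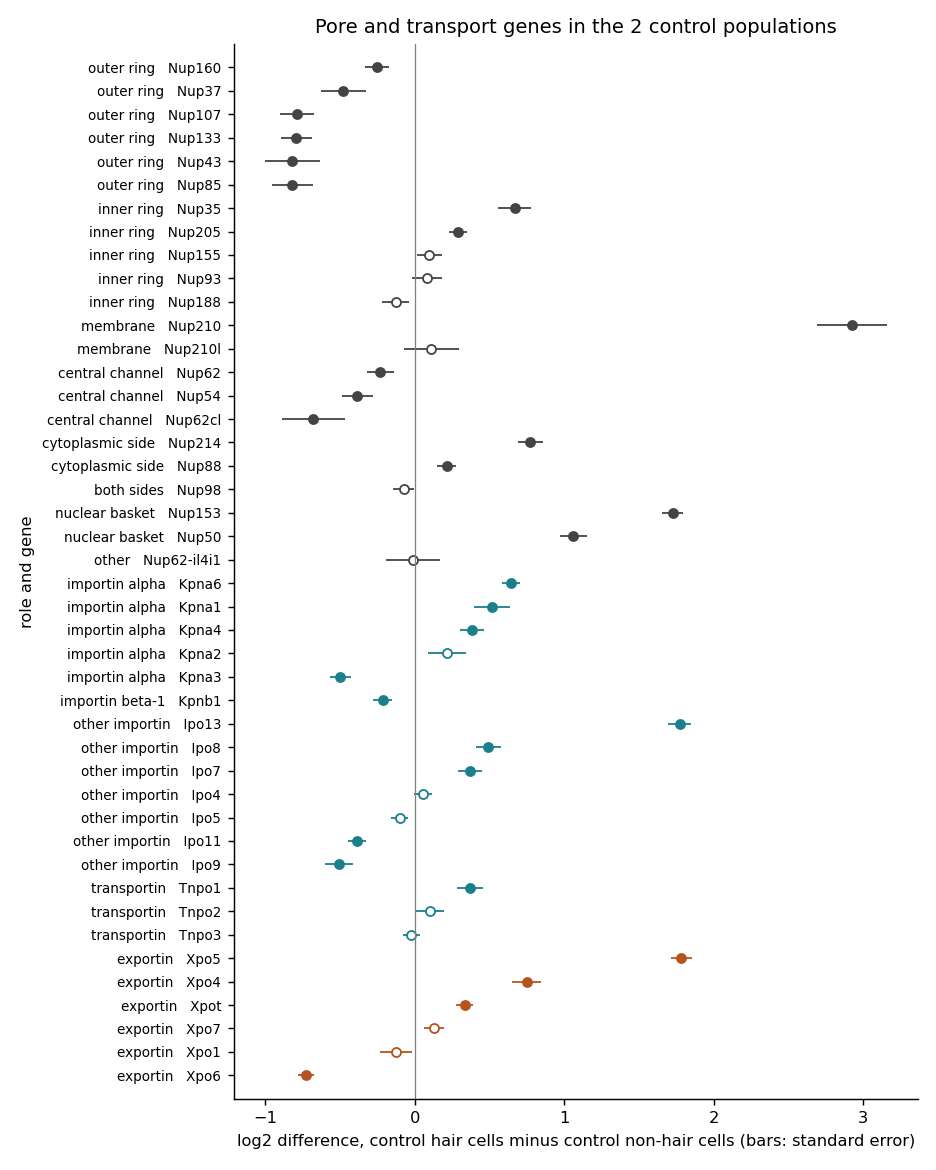
Log2 difference (hair cells minus non-hair cells, both untreated) for the 44 genes tested, ordered by role, with standard errors; filled points passed an adjusted p of 0.05 and values above 0 are higher in hair cells. The 6 genes listed as outer ring lie to the left of 0, the basket and cytoplasmic genes to the right, and Nup210 is the farthest point at 2.93.

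Nup210 was at 255, 278 and 264 in control hair cells and 24.8, 36.1 and 47.6 in control non-hair cells (log2 difference 2.93, SE 0.23, adjusted p = 4.10e-07 by limma), a 7.60-fold difference. Its hair cell replicates were close together and far above the non-hair cell ones, which themselves spread widely. Nup153, the basket protein that anchors to the inner face of the pore, was at 322, 298 and 303 and 97.2, 93.8 and 88.2 (log2 difference 1.73, SE 0.07, adjusted p = 1.44e-09 by limma), and Nup50, its partner in importin release, at 149, 142 and 146 and 73.5, 70.4 and 65.5 (log2 difference 1.06, SE 0.09, adjusted p = 7.88e-07 by limma). Nup214 on the cytoplasmic filaments was at 109, 111 and 105 in hair cells and 65.3, 59.8 and 65.1 in non-hair cells (log2 difference 0.77, SE 0.09, adjusted p = 6.78e-06 by limma). All of these groups were well separated.

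Most outer ring genes differed by similar amounts. Nup85 was at 20.9, 22.6 and 20.9 in control hair cells and 43.4, 34.0 and 36.8 in control non-hair cells (log2 difference -0.82, SE 0.14, adjusted p = 2.04e-04 by limma). Nup43 was at 6.52, 5.32 and 4.96 and 12.1, 9.32 and 8.37, Nup133 at 25.6, 24.7 and 22.8 and 45.6, 42.2 and 38.9, and Nup107 at 19.1, 19.2 and 17.5 and 35.7, 31.5 and 29.1, with log2 differences of -0.82, -0.79 and -0.78. No replicate of the hair cells reached the lowest non-hair cell replicate for any of the 6. Such separation was common in this comparison. Of the 44 genes, 15 had hair cell replicates entirely below and 18 entirely above, and 42.2% of all genes were lower by adjusted p. Nup37 and Nup160 differed by -0.48 and -0.25 on the log2 scale. Outer ring nucleoporins also act at kinetochores in dividing cells, and all 7 proliferation markers were lower in hair cells, with a summed level of 22.8 to 31.5 in control hair cells and 302 to 336 in control non-hair cells. Their part in these differences was not tested. The inner ring was mixed, with Nup35 (0.67) and Nup205 (0.29) higher and Nup93, Nup155 and Nup188 not past the threshold.

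Ipo13, a carrier that works in both directions, was at 219, 220.1 and 204 in hair cells and 59.9, 60.9 and 67.8 in non-hair cells (log2 difference 1.77, SE 0.08, adjusted p = 2.76e-09 by limma). Xpo5 was at 211, 200.1 and 192 and 57.4, 56.8 and 61.2 (log2 difference 1.78, SE 0.07, adjusted p = 1.23e-09 by limma). These were the largest differences among the carriers, 3.41-fold and 3.44-fold. Kpna6 was at 154, 160.3 and 149.8 in hair cells and 95.9, 101 and 99.8 in non-hair cells, Kpna1 at 76.3, 74.0 and 81.4 and 44.1, 56.0 and 63.4, and Ipo8, an importer of Argonaute proteins, at 63.1, 55.1 and 61.4 and 43.9, 41.7 and 41.8. Their log2 differences were 0.64, 0.52 and 0.49, without overlap. Xpo4 was at 25.4, 23.5 and 28.4 in hair cells and 15.6, 14.8 and 15.6 in non-hair cells (0.75), and Xpot at 160.1, 154 and 155 and 124, 132 and 116 (0.33). Smaller differences in the same direction passed for Kpna4 (0.38), Ipo7 (0.37), Tnpo1 (0.37) and, on the cytoplasmic side of the pore, Nup88 (0.21).

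Lower in hair cells were Xpo6, at 72.1, 74.7 and 73.5 against 123, 116 and 125 (log2 difference -0.73, SE 0.06, adjusted p = 3.03e-07 by limma), and Ipo9, an importer of core histones and actin, at 103, 106 and 104 against 153, 150.4 and 141 (log2 difference -0.51, SE 0.09, adjusted p = 3.41e-04 by limma). Kpna3 was at 40.0, 35.6 and 40.5 in hair cells and 54.3, 53.4 and 55.9 in non-hair cells (-0.50), and Ipo11 at 39.6, 38.5 and 38.9 and 52.9, 50.6 and 49.6 (-0.39). After gentamicin the hair cell replicates of Kpna3 lay above those of control non-hair cells, and those of Ipo11 overlapped them. Kpnb1 was at 250.05, 251 and 249 and 294, 286 and 291, lower in hair cells by a small margin (-0.21, adjusted p = 0.0112 by limma) that was not called under median-of-ratios scaling.

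Levels can be compared between genes only per length. As normalized read number less 1 per kilobase of merged exons, the median of 3 replicates was highest in control hair cells for Ipo13 at 60.6 (56.5 to 60.9), followed by Nup153 at 49.4 (48.6 to 52.6), Kpnb1 at 42.2 (42.1 to 42.5), Xpo5 at 39.2 (37.6 to 41.4) and Nup210 at 37.4 (36.1 to 39.3). The ranges of Xpo5 and Nup210 overlapped, and that of Xpo5 lay just below Kpnb1. In control non-hair cells Kpnb1 was first at 49.2 (48.3 to 49.7), followed by Ipo5, an importer of ribosomal proteins and histones, at 35.1 (34.2 to 36.4) and by Tnpo2 at 32.6 (26.2 to 33.5). The median over genes was 9.21 for 21 nucleoporins, 19.3 for 17 importins and transportins (Kpna7 included) and 19.8 for 6 exportins in control hair cells, and 9.78, 17.1 and 15.8 in control non-hair cells. Nup62cl and Nup210l were the lowest of the genes tested in both populations, at 0.0923 and 0.427 in control hair cells and 0.536 and 0.466 in control non-hair cells.

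Nucleoporins whose symbols fall outside the rule were described from a list of 13, of which 12 were in the tables and tested. In hair cells 2 of the 12 rose with gentamicin and none fell, against 12.7% and 14.8% of all genes. Nupl2, a cytoplasmic nucleoporin, was at 23.3, 24.8 and 25.8 in control and 33.1, 38.4 and 33.6 in treated replicates (log2 fold change 0.51, SE 0.12, adjusted p = 0.00718 by limma), and Ahctf1, which seeds pore assembly on chromatin, had a log2 fold change of 0.36 and was not called with the GC trend removed. In non-hair cells 1 rose, Sec13, an outer ring protein shared with the coat of secretory vesicles, at 73.3, 61.3 and 69.5 in control and 102, 101 and 99.0 in treated replicates (log2 fold change 0.57, SE 0.08, adjusted p = 0.0301 by limma). Sec13 did not pass in hair cells, at -0.01, and the responses differed by -0.57 (adjusted p = 0.0092 by limma). No other gene of the 12 passed this test of the difference, where 6.57% of all genes passed in the direction of Sec13. Between the control populations 8 of the 12 were higher in hair cells and 2 lower, against 31.9% and 42.2% of all genes. Aaas, whose human counterpart is mutated in triple A syndrome, was at 7.12, 7.33 and 6.53 in hair cells and 26.4, 23.0 and 23.7 in non-hair cells (log2 difference -1.80, SE 0.11, adjusted p = 5.30e-08 by limma).

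The Ran cycle supplies the energy and direction of transport, and 9 genes were listed for it and for proteins related to it. In hair cells 2 of them rose with gentamicin, against 12.7% of all genes. Nutf2, which returns Ran to the nucleus, was at 16.0, 17.2 and 17.4 in control and 24.2, 23.5 and 25.9 in treated replicates (log2 fold change 0.54, SE 0.08, adjusted p = 7.08e-04 by limma), and Ranbp17, an exportin relative, went from 16.0, 16.1 and 17.0 to 24.3, 25.4 and 24.1 (log2 fold change 0.59, SE 0.11, adjusted p = 0.00275 by limma). Treated replicates were higher throughout for both. In non-hair cells 4 rose, against 3.18% of all genes, led by Ranbp17 (0.57), the Ran partner Ranbp1 (0.40) and Rcc1, the exchange factor that loads Ran with GTP (0.39), with the lowest adjusted p at 0.0623 by limma for Ranbp17. The fourth was Rangrf at 0.35. Ranbp17 and Rcc1 were called with any 1 replicate left out. Ranbp1 was not called without control replicate 2 or treated replicate 1 or 2, and Rangrf only passed without treated replicate 3, and 2 genes rose without control replicate 2 or without treated replicate 2. Nutf2 was the only one of the 9 whose responses differed between the populations, by 0.54 (adjusted p = 0.0137 by limma), where 6.85% of all genes passed in this direction. Between the control populations 3 of the 9 were higher in hair cells and 2 lower, against 31.9% and 42.2% of all genes. Ranbp17 (log2 difference 1.55), Cse1l (0.47) and Rangap1 (0.37) were higher. Ranbp1 (-0.27) was lower, but when single replicates were left out it only passed without control non-hair cell replicate 2. Ran itself was lower in control hair cells, at 135, 122 and 129 against 222, 177 and 199.5 (log2 difference -0.63, SE 0.11, adjusted p = 2.23e-04 by limma), and had log2 fold changes with gentamicin of 0.12 in hair cells and 0.33 in non-hair cells, neither of which passed.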

How the data were processed

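RNA-seq of sorted hair cells and non-hair cells, with and without gentamicin, was analysed in 12 replicates. The authors trimmed 50 bp reads, aligned them to mm10 with TopHat2 and deposited a normalized read score per gene and replicate. Their methods speak of RPKM, but the deposited score showed no division by length: with 1 subtracted, 76.4 to 77.6% of low values were whole multiples (within 0.02) of the smallest step, so values were treated as scaled reads. Their counting of strand is not given in the sources used here, so antisense and overlapping genes cannot be separated.

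Log2 scores of the 16078 genes with at least 100 recovered reads were modelled in limma 3.58.1 under R 4.3.3 (empirical Bayes with trend, 4 groups in 1 model, two-sided tests), with Benjamini-Hochberg adjustment over all of them. Gentamicin responses were called at p under 0.01 and fold over 1.2, the other comparisons at adjusted p under 0.05. The procedure was tested on simulated data. Tables were handled in Python 3.11.15 with pandas 2.3.3. Exons, GC content and overlaps came from GENCODE M21.

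The genes and lists were chosen with earlier results of these data known. Replicate values were given for up to 4 called genes per class, comparison and direction, and up to 3 genes per list, comparison and direction were named; Nup98, Kpna4, Rangrf, Thoc2, Seh1l, Ranbp2 and genes that did not pass were named after their values were seen. Alternatives were other scalings, offsets, read minimums and call rules, voom weights, the groups of a comparison alone, a replicate block, and each replicate left out. Same-numbered control hair cell and control non-hair cell replicates deviated together over genes (correlations 0.20 to 0.32, different numbers -0.27 to -0.05), so the column numbers were taken to pair them. The main fits held no replicate term, so the SE and adjusted p given here do not use this pairing. The block joined same-numbered replicates of all 4 groups, treated ones included, and left 31 calls, 17 higher and 14 lower. Among the listed genes, it lost the calls of Rae1 between control populations, Alyref in non-hair cells and Thoc3 for the difference in response.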

Additional observations from a re-analysis of the deposited data

Results flagged for a closer look

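The gentamicin response differed between hair cells and non-hair cells, by the test of the difference itself, for 8 pore and transport genes. The differences in log2 fold change (hair cells minus non-hair cells) were 0.89 for Kpna1, 0.76 for Nup35, 0.65 for Nup54, 0.56 for Kpna3, 0.32 for Ipo11 and 0.29 for Tnpo3, with adjusted p between 0.00686 and 0.0388 by limma. They were -0.56 for Nup93 and -0.33 for Ipo4 (adjusted p = 0.0264 and 0.0255 by limma). Over the 12 fits that left out 1 replicate, Kpna1 lay between 0.77 and 1.03, Nup35 between 0.68 and 0.85, Nup54 between 0.57 and 0.73 and Kpna3 between 0.50 and 0.60, and each passed in all 12. Nup93 passed in 9 of the 12, Ipo4 in 6, Ipo11 in 3 and Tnpo3 in 2.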

How the results depend on the processing

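With the GC trend removed 7 genes rose in non-hair cells in place of 4, and 4 in place of 8 differed in response. Requiring an adjusted p under 0.05 in place of the fold and p criteria left 1 in non-hair cells (Nup93). Leaving out single replicates gave 10 to 13 genes changed in hair cells, 3 to 8 in non-hair cells, 4 to 10 with different responses and 29 to 31 between control populations. The other counts under the settings named in the methods stayed within 1.5 times. Scaling by total reads gave 16 genes risen in hair cells and none fallen (all genes: 17.3% and 9.9%). No value reversed among the pore and transport genes that were called and whose replicates are given. Of their values under alternatives, 16 of 165 in hair cells, 1 of 60 in non-hair cells, 33 of 160 for the difference in response and 2 of 300 between populations fell short of the threshold; the cause was not tested. Of responses that did not pass, many changed sign with single replicates left out. Among them were those of Kpna1 (-0.19 to 0.07) and Nup35 (-0.03 to 0.14) in non-hair cells and of Nup93 (-0.02 to 0.06) in hair cells. With the replicate number as a block the counts were 13, 4, 8 and 31, as without it. The numbers were not taken to pair control and treated samples: deviations of same-numbered samples correlated at 0.04 to 0.05 in hair cells and -0.23 to 0.68 in non-hair cells, and not every sample correlated best with its own number. At this depth, genes such as Nup43, Nup37 and Nup62cl, with few reads, are measured with less precision.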

Other observations

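Messenger RNA leaves through the same pores by a separate machinery. Of 20 genes listed for it, 4 rose and 1 fell in treated hair cells, against 12.7% and 14.8% of all genes. Eny2, a subunit shared by the pore-associated export complex and a transcription coactivator, was at 50.4, 48.6 and 55.8 in control and 102, 94.0 and 80.4 in treated replicates (log2 fold change 0.83, SE 0.10, adjusted p = 1.71e-04 by limma). Thoc3 and Thoc1 of the THO complex, which couples transcription to export, went from 32.4, 29.7 and 32.3 to 42.7, 46.2 and 47.0 and from 27.1, 27.2 and 30.5 to 41.5, 41.2 and 39.0, with log2 fold changes of 0.53 and 0.52. The fourth was Thoc2 at 0.29, which was not called with the GC trend removed (adjusted p = 0.48 by limma) and passed only without control replicate 3 when single replicates were left out. Zc3h11a fell, from 212, 212 and 214 to 150.3, 169 and 159 (log2 fold change -0.42, SE 0.07, adjusted p = 0.00113 by limma). In non-hair cells 1 of the 20 rose, Alyref, an adaptor for the export receptor (0.30, adjusted p = 0.164 by limma), against 3.18% of all genes, and it was called only without control replicate 1 or treated replicate 3 when single replicates were left out. The responses differed between the populations for 3 of the 20, Eny2 (0.70), Thoc1 (0.42) and Thoc3 (0.36). All were greater in hair cells, where 6.85% of all genes passed in this direction and 6.57% in the other. With 1 of the 12 replicates left out in turn, Eny2 passed in all 12 fits and Thoc1 in 5, failing without control hair cell replicate 1 or 2, treated hair cell replicate 1 or 2, control non-hair cell replicate 1 or 3 or treated non-hair cell replicate 1. Thoc3 passed in 1, that without treated hair cell replicate 1. With the GC trend removed the difference for Thoc1 was 0.19 (adjusted p = 0.244 by limma) and for Thoc3 0.44.

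Between the control populations 5 of the 20 were higher in hair cells (31.9% of all genes), led by Chtop (0.75) and Ddx19b (0.53), and 8 were lower (42.2%), led by Nxt2, a cofactor of the export receptor, at 4.65, 5.19 and 5.61 in hair cells and 14.4, 14.2 and 13.4 in non-hair cells (log2 difference -1.44, SE 0.11, adjusted p = 2.12e-07 by limma). The balance depended on the scaling. Under median-of-ratios scaling 9 were higher and 5 lower, and with the GC trend removed 9 were higher and 2 lower. Of 6 genes listed for SUMO conjugation at the pore, 1 rose in treated hair cells, against 12.7% of all genes. This was the protease Senp1 (log2 fold change 0.33, SE 0.09, adjusted p = 0.0163 by limma), which was called only without control replicate 3 or treated replicate 1 when single replicates were left out. None of the 6 passed in non-hair cells, where 3.18% of all genes rose and 2.26% fell. Senp2, a protease that binds the nuclear basket, was at 189, 182 and 196 in control hair cells and 65.3, 76.0 and 77.2 in control non-hair cells (log2 difference 1.38, SE 0.09, adjusted p = 5.41e-08 by limma). No other gene of the 6 passed between the control populations, where 31.9% of all genes were higher in hair cells and 42.2% lower. Under median-of-ratios scaling, and with the GC trend removed, 2 of the 6 were higher.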
